A study of Drosophila melanogaster with 80 samples.

Results

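The proteasome subunit genes of Drosophila melanogaster were followed through 80 expression arrays of whole adult flies. Members were all genes whose platform symbol begins with Prosalpha, Prosbeta, Rpn or Rpt and a digit, read from probe sets that carry 1 symbol, and 40 of the 11982 genes on the arrays met this rule. By symbol alone they split into 26 standard subunits (6 Prosalpha, 6 Prosbeta, 10 Rpn and 4 Rpt) and 14 paralogues, whose symbol carries a T or an R after the number (4 Prosalpha, 6 Prosbeta, 2 Rpn and 2 Rpt). Each member was read from 1 probe set, and 8 of these probe sets (Prosalpha5, Prosalpha7, Prosbeta5, Prosbeta7, Rpn6, Rpn13, Rpn12R and Rpt3R) can match several transcripts. Prosalpha1, Prosalpha1R, Prosbeta1, Rpn9, Rpn10, Rpt1, Rpt6 and Rpt6R had no probe set of their own and were not analysed here as members.

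All flies were Oregon R, a laboratory wild-type strain, and no group carried an introduced allele. Unmated males and virgin females were put on diet when 3 to 4 days old and held for 14 days at 25 °C, 30 to a vial. The food held sucrose at 0.15 M in the control diet (CD) and at 1 M in the high-sucrose diet (HSD). Each of the 20 groups had 4 arrays. In F0 the groups were the 4 combinations of sex and diet, and in F1 and in F2 each such combination came from 2 lines of descent, 1 from CD-fed and 1 from HSD-fed F0 males. Ancestry below means the diet of those F0 males. The series asks whether that diet leaves a trace in the transcripts of later generations. The diet of the F1 flies that bred the F2 generation, and whether a group's 4 arrays stand for separate vials, are not in the labels, so p-values measure the spread between these arrays, which may be technical.

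The proteasome is the protease that degrades ubiquitin-tagged proteins in every eukaryotic cell. Its barrel-shaped core is a stack of rings of alpha subunits (Prosalpha), which form the gate, and beta subunits (Prosbeta), some of which hold the proteolytic sites. A regulatory cap binds, unfolds and feeds in the substrate: the Rpt subunits are a ring of ATPases, and the Rpn subunits form scaffolds, ubiquitin receptors and the lid that removes ubiquitin. Drosophila also has duplicated subunit genes that are transcribed mainly in the male germ line, where Prosalpha6T is needed for the last steps of sperm formation.

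Values are log2 signals per probe set, and every change below is a difference of log2 values with its standard error (SE). Arrays give no counts, and precision rests on how many arrays a group has. The arrays had been normalized in 10 separate sets of 8, 1 for each sex in F0 and 1 for each sex and own diet in F1 and in F2. Diet in F0 and ancestry in F1 and F2 were therefore compared within a set and tested with limma over all genes, with Benjamini-Hochberg adjusted p under 0.05 as the threshold. Males against females, and own diet in F1 and F2, lie across sets, so set and group cannot be told apart there and the values are described without a test. From the labelled CD-fed F0 flies 78 genes were taken as limited to females and 652 as limited to males. On 6 arrays of later generations the genes limited to the other sex lay more than 0.5 above the lowest array of their set: arrays 1 and 4 of CD-fed F1 males of HSD ancestry, array 1 of HSD-fed F1 females of HSD ancestry, and arrays 1, 2 and 4 of HSD-fed F2 males of HSD ancestry.

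In CD-fed F0 flies all 26 standard subunits had higher log2 signals in females, and all 14 paralogues had higher signals in males. The female minus male difference of the standard subunits ran from 0.08 for Prosalpha7, a subunit of the alpha ring, to 0.93 for Prosalpha4, also in the alpha ring, with a median of 0.46, while the median of all genes was -0.02. Prosalpha4 stood at 11.12 ± 0.04 in females and 10.20 ± 0.05 in males (mean ± SD, n = 4). Other wide gaps were those of Rpn5, a scaffold of the lid, at 11.73 ± 0.02 against 10.93 ± 0.05, and of Rpn11, the lid enzyme that removes ubiquitin, at 11.48 ± 0.04 against 10.76 ± 0.04. The narrowest after Prosalpha7 was that of the beta-ring subunit Prosbeta7, at 11.83 ± 0.04 against 11.74 ± 0.03.

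The paralogues showed the reverse, on a larger scale. Their male minus female difference ran from 0.87 to 5.58, with a median of 3.68. Prosalpha6T was at 9.32 ± 0.11 in CD-fed F0 males and 3.74 ± 0.10 in females, the lid paralogue Rpn12R at 9.08 ± 0.06 and 3.79 ± 0.12, and Prosbeta5R1, a relative of the chymotrypsin-like subunit, at 8.21 ± 0.12 and 3.11 ± 0.05 (n = 4). The smallest gap was that of Prosbeta4R2, which was dim in both sexes at 4.23 ± 0.17 in males and 3.35 ± 0.03 in females. In females 6 of the 14 paralogues lay below the 25th percentile of all probe sets on every CD array and 5 on every HSD array, and none did in F0 males. The 20 testis and sperm markers moved with the paralogues: their mean log2 signal was 10.11 to 10.20 on the CD-fed F0 male arrays and 3.74 to 3.77 on the female ones, where 14 of the 20 lay below that percentile on every array. In whole flies a change in the number of cells of a type and a change in RNA per cell cannot be told apart.

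The same directions held in the later generations as far as they can be read across sets. In 9 of the 10 pairs of male and female groups, the F0 pairs included, all 26 standard subunits were higher in females. In CD-fed F2 flies of HSD ancestry 23 were. The medians of the standard subunits ran from 0.26 to 0.85. All 14 paralogues were lower in females in all 10 pairs, by medians of 3.00 to 3.46 in F1 and F2 and of 3.68 and 3.77 in F0.

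**Figure D1:**
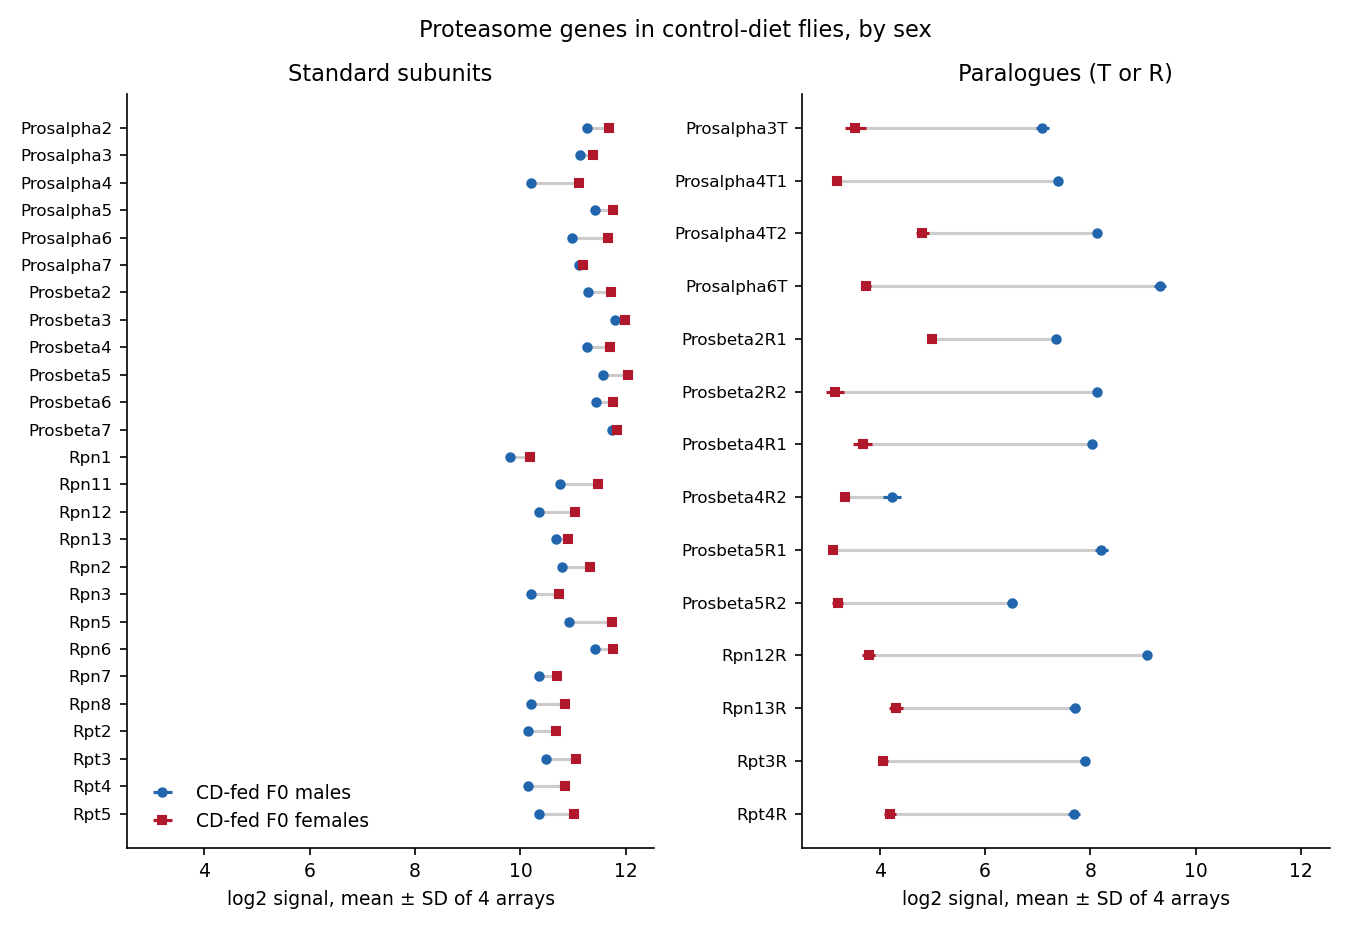
Log2 signal of each of the 40 proteasome genes in CD-fed F0 males (blue circles) and females (red squares), as the mean ± SD of 4 arrays, with a grey line joining the sexes of a gene. The 26 standard subunits lie close together in both sexes and slightly higher in females, and the 14 paralogues lie 0.87 to 5.58 higher in males.

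In F0 females all 26 standard subunits had higher values on the high-sucrose diet, each by a small amount, and all but 1 passed the test. Of the 40 members 32 passed the filter on dim genes, and 25 of them were called higher and 0 lower, all 25 of them standard subunits, where 23.1% of all genes tested were called higher and 41.3% in either direction. The median change of the 26 standard subunits was 0.21 (range 0.13 to 0.38), and the median of all genes was 0.02. On 25 of the 26 all 4 HSD arrays lay above all 4 CD arrays, against 22.9% of genes tested. The exception in both counts was Prosbeta3, a beta-ring subunit, with a change of 0.13 ± 0.05 (adjusted p = 0.083).

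The largest changes were those of Prosalpha5, Rpn12 and Prosalpha7. Prosalpha5, an alpha-ring subunit, read 11.77, 11.75, 11.73 and 11.79 on the 4 CD arrays and 12.35, 12.09, 12.09 and 12.05 on the 4 HSD arrays. Rpn12, a lid subunit, read 11.08, 10.97, 11.05 and 11.05 on CD and 11.47, 11.43, 11.39 and 11.38 on HSD. Prosalpha7 read 11.20, 11.14, 11.16 and 11.25 on CD and 11.66, 11.51, 11.53 and 11.49 on HSD. In each of them every HSD array was above every CD array, and array 1 of the HSD females was the highest. Their changes were 0.38 ± 0.07 for Prosalpha5 (adjusted p = 0.00149), 0.38 ± 0.04 for Rpn12 (adjusted p = 1.18e-04) and 0.36 ± 0.05 for Prosalpha7 (adjusted p = 4.75e-04), or about 1.3-fold each on the linear scale. The fourth was Prosalpha4, at 0.31 ± 0.04 (adjusted p = 2.91e-04).

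All parts of the particle were among the genes that rose. The alpha ring had 6 of 6 members called, with a median change of 0.29, and the beta ring 5 of 6, with a median of 0.23. Among the beta subunits the chymotrypsin-like Prosbeta5 rose by 0.30 ± 0.05 and the trypsin-like Prosbeta2 by 0.20 ± 0.05. The Rpn class had 10 of 10 called with a median of 0.21, from 0.16 ± 0.04 for the lid scaffold Rpn6 to 0.38 for Rpn12, with Rpn11 at 0.30 ± 0.04 and the ubiquitin receptor Rpn13 at 0.21 ± 0.04. The Rpt ATPases had 4 of 4 called with a median of 0.18 and the narrowest range, from 0.17 ± 0.04 for Rpt4 to 0.24 ± 0.04 for Rpt3.

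None of the 6 paralogues that could be tested in F0 females was called (limma), and 1 had an unadjusted p under 0.05. That was Rpt3R, at 0.17 ± 0.07 (adjusted p = 0.091), followed by Rpn13R, a paralogue of the ubiquitin receptor, at -0.15 ± 0.07 (adjusted p = 0.129). The other 8 paralogues were too dim in females to enter the test.

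Genes that work with the proteasome were read in the same comparison, where 23.1% of all genes tested were called higher. Among its assembly factors and regulators 5 of 7 were higher and 0 lower, with a median change of 0.19: Sem1, a small lid subunit with a symbol of its own, rose by 0.38 ± 0.07, Uch-L5, a deubiquitinase that docks on Rpn13, by 0.29 ± 0.06, Usp14, the deubiquitinase of the base, by 0.24 ± 0.05, the maturation factor Pomp by 0.19 ± 0.05 and Txl by 0.16 ± 0.04. Of 8 genes of the p97 segregase and of ubiquitin shuttling 4 were higher, namely Npl4 (0.40 ± 0.04), the shuttle Rad23 (0.32 ± 0.06), TER94, which encodes p97 itself (0.21 ± 0.04), and its cofactor p47 (0.20 ± 0.05). Of 8 ubiquitin genes and ubiquitin-linking enzymes 3 were higher, the conjugating enzyme Ubc2 (0.31 ± 0.05) and the polyubiquitin genes Ubi-p5E (0.30 ± 0.06) and Ubi-p63E (0.18 ± 0.04). The median of these 8 was 0.03, beside 0.02 for all genes.

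Of 6 transcription factors tied to proteasome genes and their partners 4 were higher and 2 lower. For this and the next lists, 23.1% of all genes tested were called higher and 41.3% in either direction. The transcription factors maf-S (0.30 ± 0.07), Dref (0.30 ± 0.07) and Hsf (0.23 ± 0.06) and the peptide N-glycanase gene Pngl (0.14 ± 0.04), a partner, were higher on HSD. Transcripts of cnc, the fly relative of the Nrf factors that in mammals drive proteasome genes, fell by 0.24 with an SE of 0.06 (adjusted p = 0.011), and those of its partner Keap1, an adaptor protein which holds Cnc in check, fell by 0.15 with an SE of 0.04 (adjusted p = 0.0252). Of 5 Cnc-linked antioxidant genes 1 was higher (GstD1, 0.12 ± 0.04) and 2 lower (Gclc, -0.22 ± 0.05, and Gclm, -0.14 ± 0.05). Of 13 cytosolic chaperones 2 were higher, the small heat shock proteins Hsp27 (0.97 ± 0.07) and Hsp26 (0.67 ± 0.06), and 1 was lower, Hsp68 (-0.41 ± 0.06). Autophagy, the other main route of protein breakdown, had 2 of 15 genes higher and 6 lower, with a median of -0.05.

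Markers of other tissues were read on the same arrays. Of 18 ovary and oocyte markers 5 were higher and 3 lower on HSD, with a median of 0.08, and their mean log2 signal ran from 10.27 to 10.38 on the CD arrays and from 10.37 to 10.50 on the HSD arrays. Of 13 follicle cell and eggshell markers 3 were higher, with a median of 0.45, and their mean ran from 11.18 to 12.08 on CD and from 12.03 to 12.34 on HSD. In either direction 8 of 18 and 3 of 13 were called, where 41.3% of all genes tested were. Called higher were 5 of 18 and 3 of 13, where 23.1% of all genes were. The eggshell median of 0.45 stood beside 0.02 for all genes. None of the genes of either list was under the 25th percentile on all arrays of either group.

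Outside the ovary the means of the midgut, fat body and muscle markers shifted, each list led by 1 or 2 of its genes. None of 4 neuron markers was called (limma), with a median of 0.05. Their means were 5.92 to 6.24 on CD and 6.03 to 6.16 on HSD. Of 4 midgut markers 2 were higher and 1 lower (median 0.12), with a mean log2 signal of 11.01 to 11.18 on CD and 11.88 to 12.13 on HSD, led by the digestive protease gene Jon65Ai at 3.71 ± 0.16. Of 5 fat body markers 1 was higher and 2 lower (median 0.01), with means of 9.56 to 9.69 on CD and 8.22 to 8.37 on HSD, led by the storage protein gene Lsp2 at -3.44 ± 0.12 and by Npc2e at -3.36 ± 0.21. Of 4 muscle markers 2 were higher and 0 lower (median 0.22), with means of 7.95 to 8.20 on CD and 8.30 to 8.87 on HSD, led by the flight muscle actin gene Act88F at 1.66 ± 0.29. The part of these tissues, and of the ovary and eggshell, in the change of the standard subunits was not tested.

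**Figure D2:**
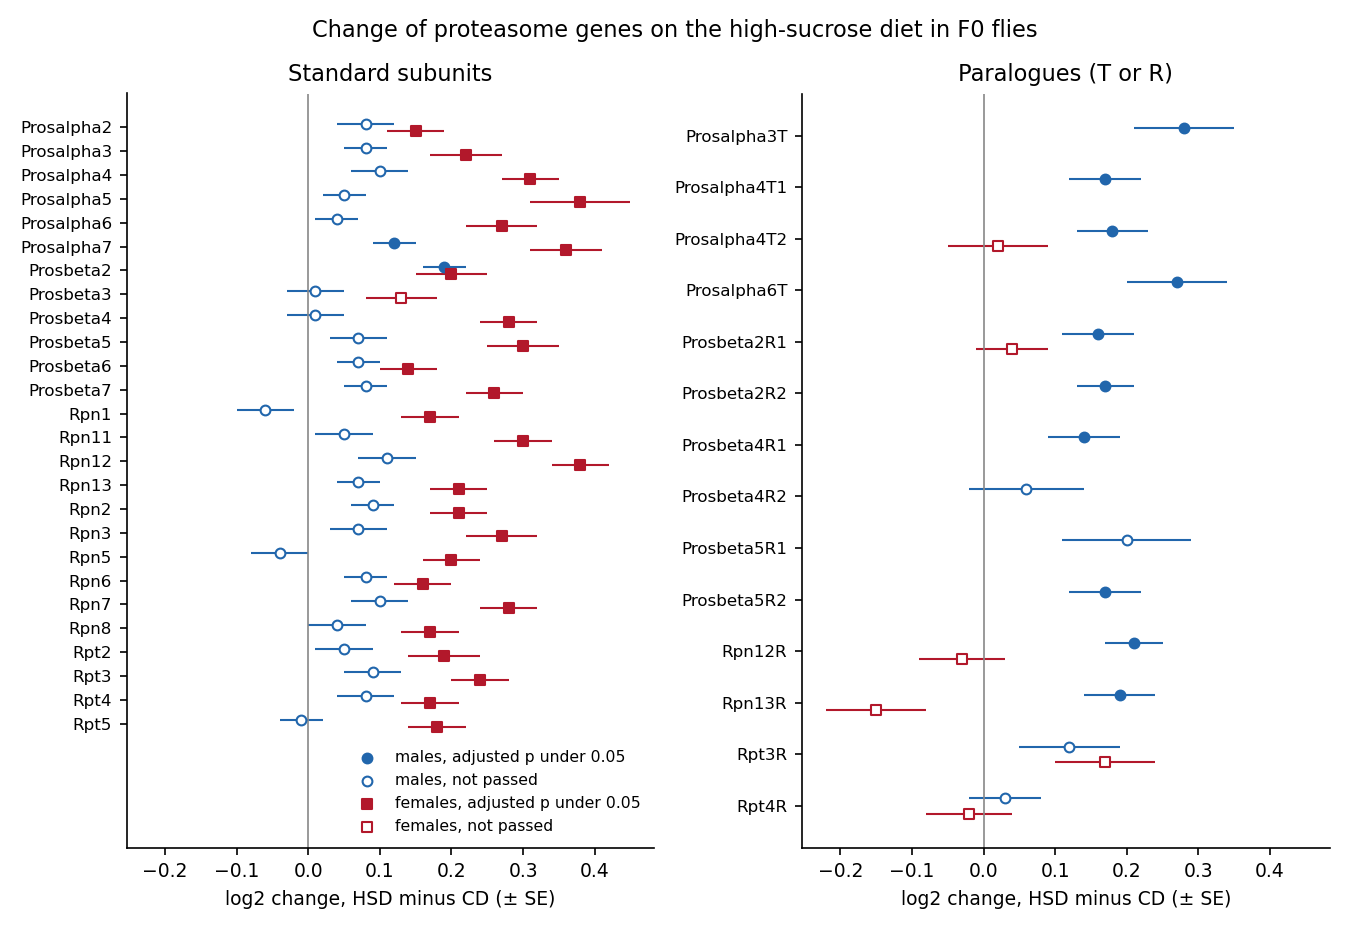
Log2 change on the high-sucrose diet (HSD minus CD, ± SE) of the proteasome genes in F0 males (blue circles) and females (red squares), with filled symbols for an adjusted p under 0.05. Standard subunits lie at 0.13 to 0.38 in females and at -0.06 to 0.19 in males, while the paralogues lie at 0.03 to 0.28 in males and those without a red symbol were too dim to test in females.

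F0 males responded mainly in the paralogues. All 40 members were tested in males, and 12 were called higher and 0 lower, where 19.5% of all genes tested were called higher and 30.5% in either direction. The called members were 10 of the 14 paralogues and 2 of the 26 standard subunits. The median change was 0.17 for the paralogues and 0.07 for the standard subunits, and 0.01 for all genes. On 9 paralogues and 11 standard subunits all HSD arrays lay above all CD arrays, which is 20 of 40 members against 20.0% of genes tested.

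Prosalpha3T, Prosalpha6T and Rpn12R changed most. Prosalpha3T, an alpha-ring paralogue, read 7.06, 7.19, 6.93 and 7.19 on the 4 CD arrays and 7.34, 7.30, 7.48 and 7.35 on the 4 HSD arrays. Prosalpha6T read 9.43, 9.37, 9.18 and 9.29 on CD and 9.48, 9.55, 9.71 and 9.62 on HSD. Rpn12R read 9.16, 9.04, 9.03 and 9.10 on CD and 9.24, 9.34, 9.31 and 9.27 on HSD. The groups were separate for each gene but close, with a gap between the highest CD and the lowest HSD array that was smaller than the range within either group. Their changes were 0.28 ± 0.07 (adjusted p = 0.0102), 0.27 ± 0.07 (adjusted p = 0.0115) and 0.21 ± 0.04 (adjusted p = 0.005).

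The fourth of the called paralogues in order of size was Rpn13R, at 0.19 ± 0.05 (adjusted p = 0.0232), whose CD and HSD arrays overlapped. The other called paralogues, Prosalpha4T1, Prosalpha4T2, Prosbeta2R1, Prosbeta2R2, Prosbeta4R1 and Prosbeta5R2, changed by 0.14 to 0.18. Those not called were Prosbeta5R1 (0.20 ± 0.09), Rpt3R (0.12 ± 0.07), Prosbeta4R2 (0.06 ± 0.08) and Rpt4R (0.03 ± 0.05). Of the standard subunits, Prosbeta2 rose by 0.19 ± 0.03 (adjusted p = 0.0027), from 11.28 ± 0.03 to 11.48 ± 0.03, and Prosalpha7 by 0.12 ± 0.03 (adjusted p = 0.0171), from 11.11 to 11.23 (n = 4). No Rpn or Rpt standard subunit was called in males (limma), and 3 of the 10 Rpn and 0 of the 4 Rpt had an unadjusted p under 0.05.

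Testis markers rose in the same males: 15 of 20 were higher and 0 lower, where 19.5% of all genes tested were called higher. Their median change was 0.23, and their mean log2 signal was 10.11 to 10.20 on the CD arrays and 10.28 to 10.40 on the HSD arrays. Of 6 accessory gland markers none was called, with a median of -0.03. Other lists shifted too. Of 5 fat body markers 1 was higher and 2 lower, with means of 9.02 to 9.06 on CD and 8.23 to 8.40 on HSD. Of 4 muscle markers 1 was higher and 0 lower, with means of 9.27 to 9.44 on CD and 9.60 to 9.81 on HSD. Of 4 midgut markers 1 was higher and 0 lower, and of 4 neuron markers none was called (limma). The part of testis content, or of these other tissues, in the change of the paralogues was not tested. The count of called members was 6 without array 3 of the CD males and 7 without array 2 of the HSD males.

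Cofactors in males were called higher at a share near that of all genes, 19.5%, with 30.5% of all genes called in either direction. There 2 of 7 assembly factors and regulators were higher, Uch-L5 (0.24 ± 0.04) and PI31 (0.20 ± 0.04), as were 2 of 8 p97 and shuttling genes, TER94 (0.15 ± 0.04) and Npl4 (0.13 ± 0.03), and 1 of 8 ubiquitin genes, Ubi-p63E (0.15 ± 0.04). Of the 6 transcription factors and partners Keap1 was higher (0.11 ± 0.04), and cnc stood at -0.02 ± 0.05. Of the antioxidant genes ref(2)P, the fly p62, was higher (0.21 ± 0.04) and Gclm lower (-0.36 ± 0.05). Autophagy genes had 2 of 15 higher and 8 lower, with a median of -0.13, Atg13 (-0.55 ± 0.05) and Atg9 (-0.44 ± 0.04) among them.

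**Figure D3:**
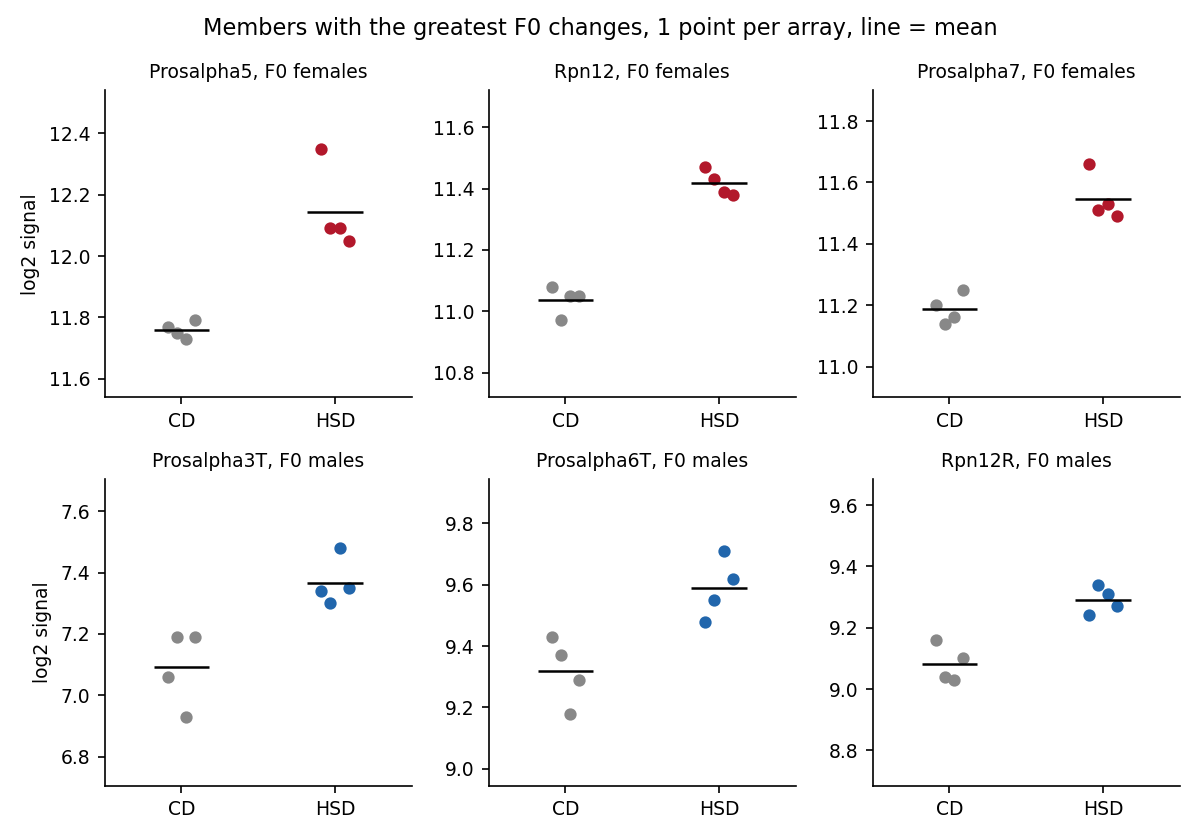
Log2 signal on each array of the 3 members with the greatest change in F0 females (top) and in F0 males (bottom), on CD (grey) and HSD (coloured), with a line at the mean. Every panel spans 1 log2 unit, and in each of them all 4 HSD arrays lie above all 4 CD arrays.

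The difference between the sexes was tested directly, as the diet change in females minus that in males. A gene entered this test if it passed the filter in either sex, so all 40 members did, 8 paralogues through males alone. The difference was called for 19 members, 16 higher and 3 lower, where 14.8% of all genes tested were called higher, 16.1% lower and 31.0% in either direction. The 16 were all standard subunits, and the 3 were all paralogues. The largest differences were those of Prosalpha5 (0.33 ± 0.07, adjusted p = 0.00317), Prosbeta4, a beta-ring subunit (0.27 ± 0.05, adjusted p = 0.00111), Rpn12 (0.27 ± 0.06, adjusted p = 0.00303) and Rpn11 (0.25 ± 0.05, adjusted p = 0.00226). By class the count was 4 of 6 alpha, 3 of 6 beta, 8 of 10 Rpn and 1 of 4 Rpt subunits, the last being Rpt5 (0.19 ± 0.05). All 26 standard subunits had a difference above 0, with a median of 0.18. Prosbeta2, whose change was 0.20 in females and 0.19 in males, had the smallest, 0.01 ± 0.06 (adjusted p = 0.941).

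The called paralogues were Prosalpha6T (-0.35 ± 0.12, adjusted p = 0.0333), Rpn13R (-0.34 ± 0.09, adjusted p = 0.0113) and Rpn12R (-0.24 ± 0.08, adjusted p = 0.0269). In females their means lay between 3.66 and 4.31, near the dim end of the arrays, and Prosalpha6T did not pass the filter there. Their changes in males were 0.27, 0.19 and 0.21. A change cannot be read well near the dim end, so the 3 calls are not read as a difference in response between the sexes.

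In descendants, changes with ancestry were small and few passed the test. Among CD-fed F1 males, sons of F0 males, 2 of 40 members were called higher with HSD ancestry and 0 lower, where 3.21% of all genes tested were called higher and 4.51% in either direction. Prosalpha6, an alpha-ring subunit, read 10.48, 10.57, 10.56 and 10.55 in sons of CD males and 10.75, 10.80, 10.67 and 10.77 in sons of HSD males. Rpn11 read 10.41, 10.53, 10.38 and 10.43 against 10.66, 10.72, 10.60 and 10.62. The groups did not overlap for either gene, and the changes were 0.21 ± 0.05 for Prosalpha6 (adjusted p = 0.0397) and 0.21 ± 0.05 for Rpn11 (adjusted p = 0.0406). The median over the standard subunits was 0.12, with 24 of 26 above 0, and 11 of them had groups that did not overlap, against 9.28% of genes tested. The median of the paralogues was -0.06, with none called (limma) and 2 at an unadjusted p under 0.05.

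Both calls in CD-fed F1 males were lost without the HSD-ancestry arrays 1 and 4, which carried female-limited transcripts: the changes were then 0.20 for Prosalpha6 and 0.22 for Rpn11, with a median of 0.11 over the standard subunits and fewer arrays in the fit. Yolk protein genes, made in females, had a median change of 2.02 in this comparison with none of 3 called, and 4 of 20 testis markers were lower, with a median of -0.17. Their part in the result was not tested. The count was 0 or 1 when any array except array 3 of HSD ancestry was left out.

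The F1 male changes averaged over both own diets gave 4 of 40 members higher and 0 lower, where 3.60% of all genes tested were called higher and 5.08% in either direction. They were Prosalpha6 (0.14 ± 0.03, adjusted p = 0.00619), Rpn12 (0.12 ± 0.03, adjusted p = 0.0218), Prosalpha4 (0.12 ± 0.03, adjusted p = 0.0225) and Rpn11 (0.12 ± 0.03, adjusted p = 0.024). In CD-fed F1 males Prosalpha4 read 9.75, 9.82, 9.87 and 9.80 with CD ancestry and 10.03, 9.98, 9.87 and 10 with HSD ancestry, and Rpn12 read 9.90, 10.02, 9.93 and 10.07 against 10.23, 10.18, 10.17 and 10.15. In HSD-fed F1 males Prosalpha4 read 11.01, 10.99, 10.95 and 10.97 against 11.07, 11.05, 11.07 and 11.05, Prosalpha6 read 11.70, 11.64, 11.69 and 11.64 against 11.73, 11.74, 11.73 and 11.73, Rpn12 read 10.77, 10.79, 10.78 and 10.77 against 10.78, 10.87, 10.81 and 10.81, and Rpn11 read 11.19, 11.18, 11.22 and 11.16 against 11.21, 11.20, 11.22 and 11.19. The steps in HSD-fed males were 0.02 to 0.08, smaller than those of 0.16 to 0.21 in CD-fed males. The count was 1 without the arrays that carried female transcripts, 8 without array 2 of the CD-fed males of CD ancestry and 8 without array 3 of those of HSD ancestry. Of the p97 genes Npl4 (0.13 ± 0.03) and p47 (0.14 ± 0.03) were also higher, and in the same comparison the 3 yolk protein genes had a median of 1.00, with none called, and 2 of 20 testis markers were lower (median -0.09). Their part was not tested, and 0 of 7 assembly factors and regulators were called (limma).

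In HSD-fed F1 males 0 of 40 members were called by limma, as was 0% of all genes tested, and 3 members had an unadjusted p under 0.05. The smallest p were those of Prosalpha4 (0.08 ± 0.03, adjusted p = 0.336) and Rpn13R (-0.09 ± 0.03, adjusted p = 0.336). The ancestry change of HSD-fed minus that of CD-fed F1 males was called for 0 of 40 members, against 3.75% of genes tested, with 11 at an unadjusted p under 0.05. Rpn11 came closest, at -0.20 ± 0.05 (adjusted p = 0.0515), followed by the beta-ring paralogue Prosbeta2R2, at 0.19 ± 0.06 (adjusted p = 0.0956). Without array 2 of the CD-fed males of CD ancestry the count was 2, and without array 3 of those of HSD ancestry it was 3.

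F1 females had no member called in any comparison by limma. In CD-fed F1 females 0 of 34 tested members were called, against 2.64% of genes, and 1 had an unadjusted p under 0.05: Prosalpha4, at -0.11 ± 0.05 (adjusted p = 0.256), ahead of Rpn6 at -0.09 ± 0.04 (adjusted p = 0.319). In HSD-fed F1 females it was 0 of 35, against 4.07% of genes, with 1 at an unadjusted p under 0.05, Rpn12R at 0.09 ± 0.03 (adjusted p = 0.18), ahead of Prosbeta2R1 at 0.10 ± 0.04 (adjusted p = 0.275). The standard subunits had medians of -0.01 and 0.00. Averaged over diets 0 of 35 were called, against 7.35% of genes, and 0 had an unadjusted p under 0.05, with Prosalpha4 at -0.06 ± 0.03 (adjusted p = 0.231) and Rpn6 at -0.04 ± 0.02 (adjusted p = 0.323). The difference between the diets gave 0 of 35, against 2.86% of genes, and 1 at an unadjusted p under 0.05, Rpn6 at 0.10 ± 0.05 (adjusted p = 0.301), then Prosbeta2R1 at 0.16 ± 0.09 (adjusted p = 0.377).

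In F2 males, grandsons of the F0 males, most standard subunits had values above 0 with HSD ancestry, and none passed the test. In CD-fed F2 males 0 of 39 tested members were called by limma, against 2.98% of genes, and 6 had an unadjusted p under 0.05. The lid subunit Rpn3 changed by 0.20 ± 0.07 (adjusted p = 0.124) and the lid subunit Rpn7 by 0.19 ± 0.07 (adjusted p = 0.142), and all 26 standard subunits had values above 0, with a median of 0.09 beside 0.03 for all genes. In HSD-fed F2 males 0 of 39 were called, against 0.200% of genes, and 5 had an unadjusted p under 0.05. There Prosbeta5 stood at 0.17 ± 0.06 and the ATPase Rpt2 at 0.17 ± 0.06 (both adjusted p = 0.558), and 25 of 26 standard subunits lay above 0, with a median of 0.10. HSD-ancestry arrays of this set carried female transcripts, with 3 of 3 yolk protein genes higher (median 1.76). Without arrays 1, 2 and 4 the median of the standard subunits was 0.11. That fit held array 3 alone in the HSD-ancestry group. Its female-limited genes lay 0.378 above the lowest array of the set, against 0 to 0.021 on the CD-ancestry arrays. The fit is thus not free of female transcripts, and their part was not tested.

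Averaged over own diets, F2 males again had 0 of 39 members called by limma, against 1.14% of genes. An unadjusted p under 0.05 was reached by 16 members, and no such share of all genes is given here for any comparison. All 26 standard subunits lay above 0, with a median of 0.11 beside 0.02 for all genes. The subunits vary together, so their number does not count as replication. Female-tissue markers were higher in the same comparison, 3 of 3 yolk protein genes (median 0.85), 4 of 12 tested follicle cell and eggshell markers (median 0.32) and 4 of 16 tested ovary and oocyte markers (median 0.15), and their part was not tested. Without the arrays that carried female transcripts the median of the standard subunits was 0.12. That fit again held array 3 alone in the HSD-fed group of HSD ancestry, so it too was not free of female transcripts. The smallest adjusted p were those of Rpn3 (0.17 ± 0.05, adjusted p = 0.0784) and Rpn7 (0.15 ± 0.04, adjusted p = 0.0917). Rpn3 read 10.09, 10.08, 10.04 and 10.17 in CD-fed F2 males of CD ancestry and 10.16, 10.38, 10.39 and 10.24 in those of HSD ancestry, and in HSD-fed F2 males 10.04, 10.06, 10.10 and 9.85 against 10.14, 10.26, 10.15 and 10.09. The groups overlapped on both diets. The difference between own diets was called for 0 of 39 members, against 0.919% of genes, with 0 at an unadjusted p under 0.05, and was led by Rpt4R (-0.21 ± 0.12, adjusted p = 0.467) and Prosalpha4T1 (-0.12 ± 0.09, adjusted p = 0.618).

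In F2 females, averaged over own diets, 1 of 35 tested members was called, Rpt5, an ATPase of the base, which fell by 0.10 with an SE of 0.03 (adjusted p = 0.0419), where 7.75% of all genes tested were called lower and 10.2% in either direction. Rpt5 read 11.03, 10.87, 11.01 and 10.95 in CD-fed females of CD ancestry and 10.76, 10.84, 10.88 and 10.79 in those of HSD ancestry, and 11.29, 11.27, 11.29 and 11.25 against 11.22, 11.20, 11.22 and 11.23 in HSD-fed females. The groups overlapped by 1 array on CD and did not overlap on HSD. Of the standard subunits 25 of 26 lay below 0, with a median of -0.05 beside -0.03 for all genes. By own diet the medians were -0.08 beside -0.04 for all genes in CD-fed females, and -0.01 beside -0.02 in HSD-fed females, where 8 of 26 lay above 0. The call was lost when any of 13 of the 16 arrays was left out, and without array 2 of the CD-fed females the count became 4 (CD ancestry) or 2 (HSD ancestry).

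Eggshell genes moved in the same females. Of 13 follicle cell and eggshell markers 12 were lower with HSD ancestry, with a median of -0.70, while 0 of 18 ovary and oocyte markers were called (limma), with a median of -0.08. Among the cofactors Uch-L5 was lower (-0.18 ± 0.05, adjusted p = 0.0253). The part of egg development in these values was not tested.

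By own diet, CD-fed F2 females had 0 of 35 members called by limma, against 1.29% of genes, and 4 at an unadjusted p under 0.05, led by Rpt4R (0.17 ± 0.06, adjusted p = 0.162) and Prosbeta2R1 (0.21 ± 0.08, adjusted p = 0.169). HSD-fed F2 females had 0 of 34, against 0.787% of genes, and 1 at an unadjusted p under 0.05, Rpn12R (0.20 ± 0.08, adjusted p = 0.23), ahead of Prosbeta3 (-0.07 ± 0.04, adjusted p = 0.356). Their difference gave 0 of 35, against 0.169% of genes, with 2 at an unadjusted p under 0.05, Rpt4R (-0.25 ± 0.09, adjusted p = 0.315) and Prosbeta2R1 (-0.27 ± 0.12, adjusted p = 0.416).

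**Figure D4:**
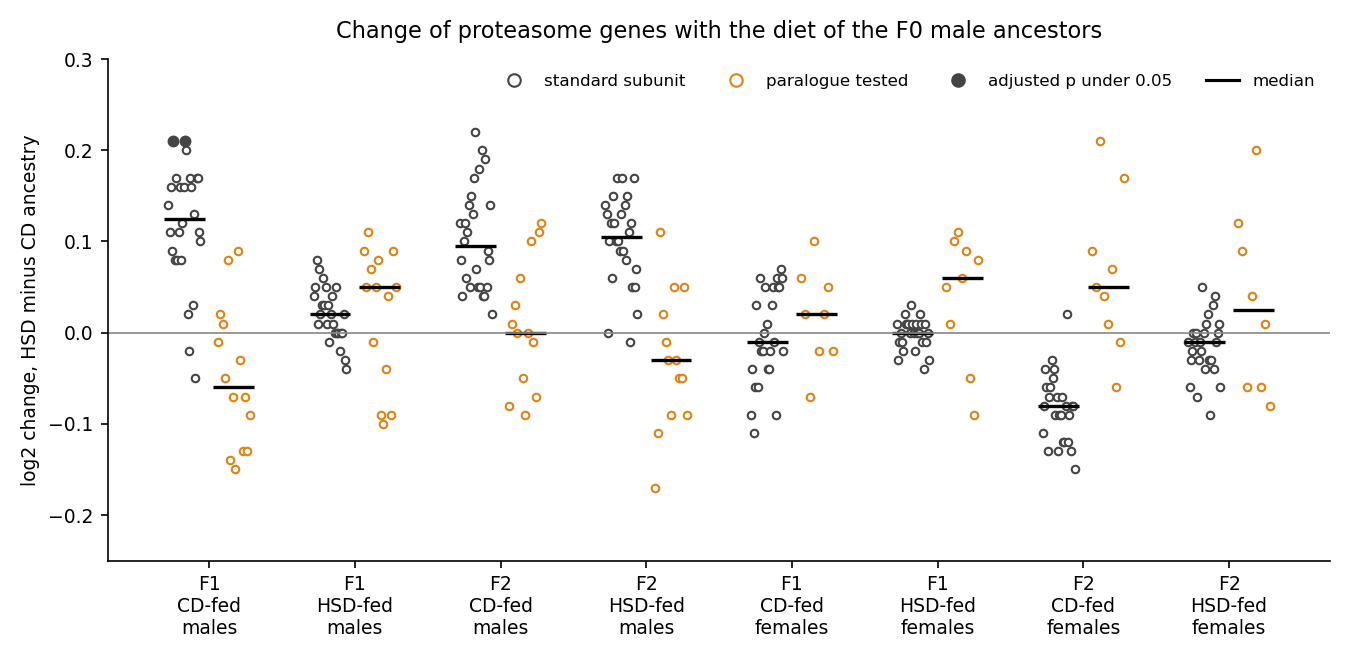
Log2 change with ancestry (HSD minus CD) of each tested proteasome gene in the 8 sets of descendants, with standard subunits in grey, paralogues in orange and a bar at each median. Filled points, 2 in CD-fed F1 males, passed an adjusted p of 0.05, and the medians of the standard subunits are 0.12, 0.02, 0.09 and 0.10 in the 4 male sets and between -0.08 and 0.00 in the female sets.

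Own diet in F1 and F2 was read across sets. In F1 all 26 standard subunits had higher values in HSD-fed flies in each of the 4 pairs of groups, with medians of 0.64 to 0.89, but the median of all genes was higher as well, by 0.33 to 0.42. In F2 the medians were -0.30 and -0.25 in males, where all genes had medians of -0.36 and -0.34, and 0.14 and 0.21 in females, where all genes had -0.13 and -0.12. Ranks within an array do not depend on the set's scale. On these the median difference in percentile over the standard subunits was 0.64 to 2.63 points higher on HSD in all 8 pairs. In F2 males 18 of 26 subunits (CD ancestry) and 21 of 26 (HSD ancestry) were higher. The CD-fed and HSD-fed groups of a pair carry different batch labels, so batch and diet cannot be told apart on ranks either. In F0, within a set, the mean of the standard subunits' median percentile went from 95.5 to 96.6 in females and from 92.6 to 92.8 in males.

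Across the 80 arrays, with the mean of its set taken off each value, the standard subunits varied together. The 325 pairs had a median Pearson correlation of 0.67 (range 0.02 to 0.88), against 0.07 for standard subunits with other genes. With the mean of each group taken off instead, which removes diet and ancestry, the median was 0.45. Arrays of a set share a normalization, and these correlations are a description. The subunits closest to the mean of the other 25 were Rpn7 (0.91), Rpn11 (0.90) and Prosbeta5 (0.90). The least alike were the lid subunits Rpn6 (0.39) and Rpn8 (0.40) and the base scaffold Rpn2 (0.56), and for these the values were 0.16, 0.16 and 0.27 over the 40 male arrays and 0.58, 0.57 and 0.78 over the 40 female arrays. The paralogues correlated with each other over the male arrays with a median of 0.38.

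**Figure D5:**
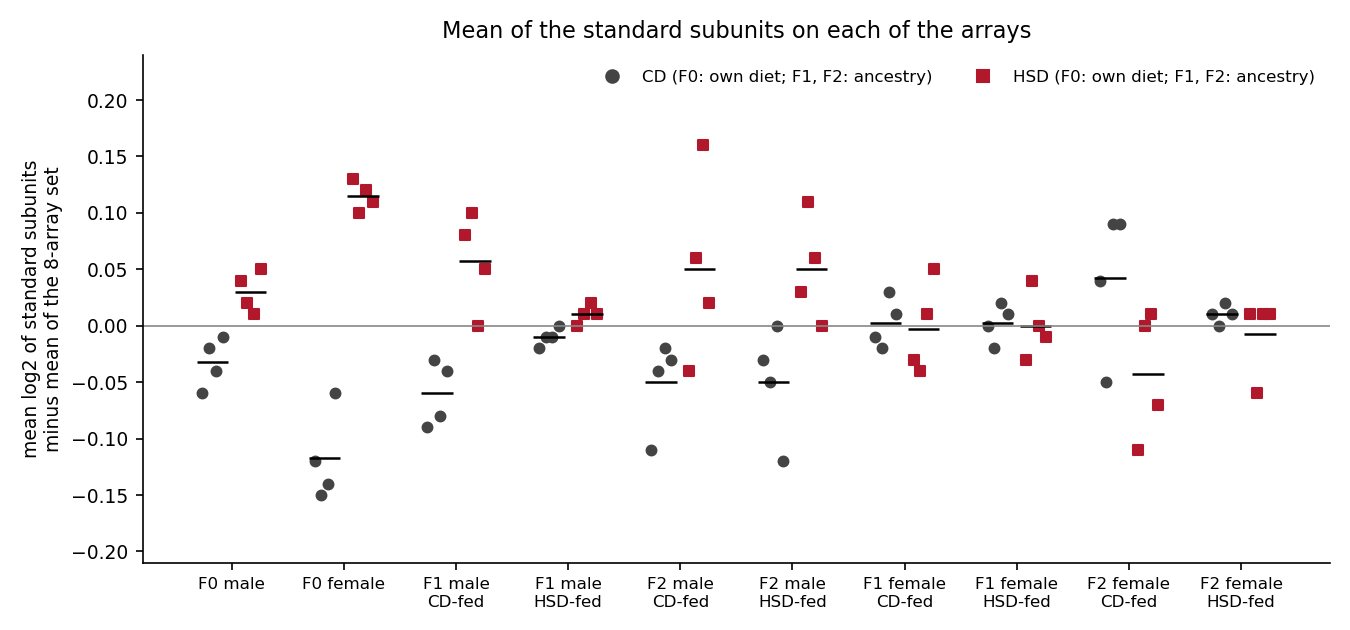
Mean log2 signal of the 26 standard subunits on each of the 80 arrays, with the mean of its set of 8 taken off, for CD (grey circles) and HSD (red squares), meaning own diet in F0 and ancestry in F1 and F2, and a bar at each group mean. F0 females separate most, with CD arrays at -0.15 to -0.06 and HSD arrays at 0.10 to 0.13. The groups of CD-fed F2 males and of all female descendants overlap. In HSD-fed F1 males and HSD-fed F2 males the groups meet, with an array of each ancestry at -0.00.

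Ranked by correlation with the mean of the standard subunits over the 80 arrays, the 10 other genes most alike, of 10857, were Usp14 (0.873), Aos1 (0.862), CG12795 (0.835), scu (0.834), p47 (0.824), CG1307 (0.823), CG12877 (0.818), CG10237 (0.814), Caf1-55 (0.811) and PSMG1 (0.804). Usp14 acts on the proteasome itself, p47 is the p97 cofactor named above, PSMG1 is named for an assembly chaperone of the alpha ring, Aos1 activates the ubiquitin-like modifier SUMO and Caf1-55 binds histones. Of the listed genes that were ranked, cnc was the lowest, with -0.710, at rank 10853 of 10857. The other transcription factors and partners ran from -0.224 (Keap1) to 0.422 (Hsf), and the Cnc-linked antioxidant genes from -0.212 (Gclc) to 0.571 (GstD1). Assembly factors and regulators other than Usp14 were at 0.802 (Txl), 0.642 (Uch-L5), 0.542 (PI31), 0.231 (Sem1), 0.133 (REG) and -0.161 (Pomp).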

How the data were processed

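RNA of whole flies was hybridised to Affymetrix Drosophila Genome 2.0 arrays (80 arrays, 20 groups of 4). The deposited log2 signals, 1 for every probe set on an array, were computed by the authors using RMA, per the submitters' processing notes, which also name limma without a version. The array medians, from 5.16 to 7.34, and the spread of sorted values showed 10 separately normalized sets of 8 arrays. Of 18952 probe sets 13647 had 1 gene symbol in the platform annotation, for 11982 genes, and the probe set with the highest mean over all arrays stood for each gene. Genes were tested where a group mean reached the 25th percentile of all probe sets. Models were fitted with limma 3.58.1 in R 4.3.3 (lmFit, eBayes, two-sided), with p-values adjusted by Benjamini-Hochberg over all genes tested, and were tested on simulated data. Tables were made with pandas 2.3.3 in Python 3.11.15.

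The members and the lists were chosen with earlier results of these data known. In each comparison the named members are those called with the 4 greatest rises and 4 greatest falls of each kind, all called where there were 8 or fewer, and the 2 with the smallest p where there was none. Alternatives were quantile normalization within sets, other dim filters, the mean of all probe sets, a trended variance prior, a replicate block, leaving out arrays with transcripts of the other sex, and leaving out each array. No sequence or genome was used here.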

Additional observations from a re-analysis of the deposited data

Results flagged for a closer look

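In 11 of 118 tests of a group of 4 arrays the highest or lowest array stood apart from the other 3 by Dixon's test, and chance gives about 1 in 20. The mean of the standard subunits was 11.42 on array 2 of the HSD-fed F2 females of HSD ancestry, with the next array at 11.49. The mean of the paralogues was 3.86 on array 1 of the CD-fed F0 females, with the next at 3.78, and 7.63 on array 1 of the CD-fed F2 males of CD ancestry, with the next at 7.59. In F0 females Prosalpha5 read 12.35 and Prosbeta7 12.18 on HSD array 1, Rpt2 read 10.82 on HSD array 2, Prosbeta4 read 11.66 on CD array 2 and Prosbeta5 read 12.12 on CD array 4. In F0 males CD array 3 was highest for Prosalpha7 at 11.11, with the next also 11.11 at 2 decimals, and lowest for Prosbeta2R1 at 7.25 and Prosbeta4R1 at 7.90.

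A difference in diet change between F0 females and males was called for 19 members by limma's test of the difference. The female minus male differences not given in the report were 0.24 for Prosalpha7, 0.24 for Rpn5, 0.23 for Rpn1, 0.23 for Prosbeta5, 0.22 for Prosalpha6, 0.21 for Prosalpha4, 0.20 for Rpn3, 0.18 for Prosbeta7, 0.18 for Rpn7, 0.14 for Rpn13 and 0.13 for Rpn8. Those given there were 0.33 for Prosalpha5, 0.27 for Prosbeta4, 0.27 for Rpn12, 0.25 for Rpn11, 0.19 for Rpt5, -0.24 for Rpn12R, -0.34 for Rpn13R and -0.35 for Prosalpha6T. The last 3 are paralogues near the dim end of the arrays in females and are not read as a difference in response between the sexes.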

How the results depend on the processing

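Leaving out 1 array at a time kept 196 of 224 counts of called members within 1.5 times, and the other alternatives kept 108 of 123. Most comparisons had 0 members called, and many of the kept counts are a 0 that stayed at 0. These shares therefore do not measure how stable the called counts are. Over the 63 called pairs of a member and a comparison no direction reversed under any alternative run. These pairs were taken because they were called, so a reversal was unlikely from the start. With 1 array left out 99 of 696 calls were lost, and 28 of 384 under the other alternatives. In F0 males, with 12 members called, the count was 6 with a replicate block and 6 to 11 with 1 array left out. In CD-fed F1 males, with 2 called, it was 5 after quantile normalization, 4 with the dim filter at the 50th percentile, 10 with the trended variance prior, 0 with a replicate block, 0 without the arrays holding female transcripts (fewer arrays) and 0 to 2 with 1 array left out. In F1 males averaged over own diets, with 4 called, it was 7 with the trended prior, 2 with a replicate block, 1 without those arrays and 3 to 8 with 1 array left out. In F2 females averaged over own diets, with 1 called, it was 0 after quantile normalization, 0 without a dim filter, 0 with a replicate block and 0 to 4 with 1 array left out. For the difference between own diets in F1 males, with 0 called, it was 1 with the dim filter at the 50th percentile, 1 with the mean of all probe sets, 1 with the trended prior and 0 to 3 with 1 array left out. The cause of these shifts was not tested. In F0 females the count stayed at 24 to 27 with 1 array left out and was 24 with a replicate block. Arrays of a set that share a replicate number correlated at -0.29 to 0.62 in their deviations from the group means, and no set had every pair above 0.1. In HSD-fed F1 females 4 of 8 arrays correlated best with their own number, and in the other sets 0 to 3 of 8 did. These values do not settle whether the numbers pair the samples, and the main fits did not pair them. In F0 females 8 of the 14 paralogues were too dim to be tested.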

Other observations

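The probe set shared by Prosalpha1 and Prosalpha1R, which could not be given to either gene, stood at 12.01 ± 0.08 in CD-fed and 12.31 ± 0.02 in HSD-fed F0 females, and at 11.87 ± 0.07 and 12.04 ± 0.07 in F0 males (mean log2 signal ± SD, n = 4). Its change was not tested.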
